A study of Mus musculus with 6 samples.

Results

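The genes of the vacuolar H+-ATPase (V-ATPase) and of lysosomal nutrient signalling were followed in RNA of cultured mouse cerebellar granule neurons (CGNs) given the EZH2 inhibitor GSK-126 or its vehicle DMSO. Members were taken by name. Every gene whose symbol begins with Atp6v or Atp6ap gave 28 rows, and 17 further genes were named singly: the transcription factors Tfeb, Tfe3 and Mitf, the folliculin complex, Ragulator, the Rag GTPases, Slc38a9, Mtor and Rptor. Together they made 45 of the 55341 genes in the tables, of which 37 had enough counts to be tested. The 8 that did not were Atp6ap1l, Atp6v0a4, Atp6v0c-ps1, Atp6v1b1, Atp6v1c1, Atp6v1e2, Atp6v1fnb and Atp6v1g3. By name, 13 rows were subunits of the V1 sector, 9 were subunits of the V0 sector, 2 were accessory proteins, and 4 were 2 pseudogenes of Atp6v0c, the accessory-like Atp6ap1l and the gene next to Atp6v1f, Atp6v1fnb.

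There were 3 libraries per group. The study added GSK-126 at this later time to ask how late genes respond to blocking EZH2, the enzyme that writes H3K27me3, once many early genes already carry the mark. All cultures came from granule neuron progenitors of CD1-IGS mice at P6-P8, were isolated on Percoll, and were given AraC at DIV2 against dividing non-neuronal cells. DMSO or GSK-126 was added once at DIV3 and RNA was taken at DIV5, according to the methods, whereas the labels name cerebellar tissue and DIV3 only. A replicate was CGNs of pooled litters, and the dose of GSK-126 for these cultures was not given in the sources used here. The libraries held 7407189 to 13092763 counts on genes, and no marker of granule neurons, astroglia, microglia, oligodendrocytes, fibroblasts or interneurons in the lists used was at 0 in every library, so the cultures held RNA of several cell types. In such bulk RNA, fewer cells of a type and less RNA per cell cannot be told apart.

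The V-ATPase is the rotary proton pump that acidifies lysosomes, endosomes and synaptic vesicles. Its peripheral V1 sector hydrolyses ATP and its membrane-embedded V0 sector conducts protons. At the lysosomal surface the pump works with Ragulator and the Rag GTPases to recruit mTORC1 when amino acids are plentiful, and the folliculin complex sets the nucleotide state of RagC and RagD, which controls whether TFEB and TFE3 stay in the cytoplasm or enter the nucleus and switch on lysosomal genes. Neurons depend on the same pump to load transmitter into vesicles, and some subunits exist as paralogs with neuronal or macrophage-enriched forms.

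Within the pairs of libraries that share a replicate number, 10 of the 17 signalling members and 6 of the 17 V1 and V0 subunits tested were higher with GSK-126 in all 3 pairs, beside 19.5% of all genes tested. All components of the folliculin complex (Flcn, Fnip1 and Fnip2), the GTPases Rragc and Rragd, the Ragulator anchor Lamtor1 and the V0 subunit Atp6v0d2 rose, and the V1 subunit Atp6v1g2 fell, when the replicate number was a block in the fit. In the fit without the block, none of the 37 members passed in either direction, against 0% of the 16729 genes tested in either direction (edgeR's quasi-likelihood test, Benjamini-Hochberg adjusted p under 0.05). That fit gave 4 members an unadjusted p under 0.05 with a higher level (Flcn, Fnip1, Fnip2 and Rragd) and 0 with a lower one, beside 1.77% of all genes higher and 2.21% lower, and DESeq2 without the block called 0 members. With the block, 7 members rose and 1 fell, where 3.35% of all genes tested rose and 5.09% fell. Libraries of the same replicate number deviated alike from their group means. Across genes these deviations correlated at 0.561, 0.634 and 0.487 between libraries of the same number, and at 0.00638 or less between the others. Centring each group on its mean by itself lowers the values between the others where those of the same number are positive.

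The calls depended on the pairs and the test. Leaving out pair 1, pair 2 or pair 3 left 7, 4 and 5 members called higher, beside 2.47%, 2.00% and 3.30% of all genes. The members called lower were then 1, 1 and 0, beside 3.98%, 2.95% and 4.25%. DESeq2 with the block called 4 members higher (Atp6v0d2, Flcn, Fnip2 and Rragd), beside 3.28%, and Atp6v1g2 lower, beside 5.52%, and gave no adjusted p for 3 members of low counts. The groups of 3 libraries did not overlap in 7 members, all higher with GSK-126 (Atp6v0e, Atp6v1f, Atp6v1g1, Flcn, Fnip1, Lamtor5 and Rragd), beside 4.72% of all genes higher and 4.72% lower. In all 3 pairs, 17 members were higher and 4 lower, beside 19.5% and 22.8% of all genes. The median log2 fold change without the block was 0.12 over the 37 members, 0.22 over the 17 signalling members and 0.11 over the 17 V1 and V0 subunits tested, beside -0.0071 over all genes tested.

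**Figure D1:**
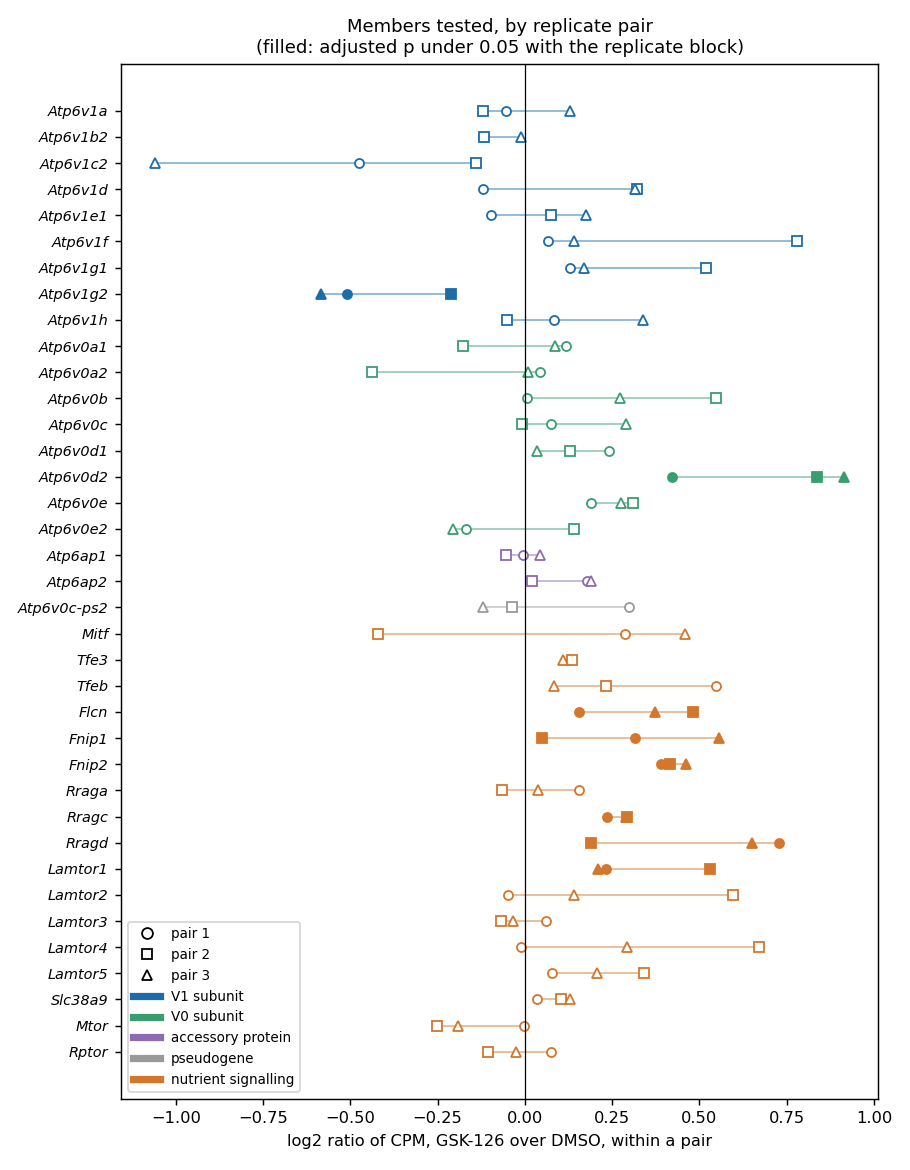
The log2 ratio of CPM (counts scaled to a common library total), GSK-126 over DMSO, of each tested member (rows) within each of the 3 replicate pairs (circle, square, triangle), with filled symbols where the adjusted p was under 0.05 once the replicate number was a block. The filled rows are 6 signalling genes and Atp6v0d2 to the right of 0 and Atp6v1g2 to the left, while most pump subunits scatter around 0.

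Among the signalling genes, all components of the folliculin complex were called higher with the block. Values are CPM, counts scaled to a common library total with TMM factors. Flcn, folliculin, the GTPase-activating protein for RagC and RagD, was at 89.2, 81.7 and 71.5 CPM in DMSO replicates 1 to 3 and at 99.3, 114 and 92.7 CPM in GSK-126 replicates 1 to 3. Every GSK-126 library lay above every DMSO library. The log2 fold change was 0.34 (SE 0.13, adjusted p = 0.953 in edgeR without the block) and 0.34 with the block (SE 0.087, adjusted p = 0.0183 in edgeR). Fnip1, a partner that binds folliculin, was at 102, 121 and 94.8 CPM under DMSO and at 127, 125 and 139 CPM under GSK-126, again without overlap. Its log2 fold change with the block was 0.30 (SE 0.09, edgeR adjusted p = 0.0404), and the adjusted p without the block was 0.953. Fnip2, the second partner, was at 60.4, 49.5 and 68.8 CPM under DMSO and at 79.3, 66.0 and 94.8 CPM under GSK-126. The groups overlapped, but each pair rose by nearly the same log2 ratio, 0.39, 0.42 and 0.46. With the block the log2 fold change was 0.42 (SE 0.088, edgeR adjusted p = 0.00385), against an adjusted p of 0.953 without it. The calls differed in how they rested on single pairs. Fnip2 passed whichever pair was left out, Flcn passed only without pair 1 (adjusted p = 0.127 without pair 2 and 0.0655 without pair 3), and Fnip1 passed only without pair 2 (0.0906 without pair 1, and 0.373 at a log2 fold change of 0.18 without pair 3) in edgeR with the block.

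Of the Rag GTPases, which form heterodimers of RagA or RagB with RagC or RagD, both members of the RagC and RagD side rose and Rraga did not pass. Rragd had the largest block estimate among the signalling members. It was at 54.0, 81.3 and 58.4 CPM under DMSO and at 89.4, 92.7 and 91.6 CPM under GSK-126. The DMSO libraries spread widely, with replicate 2 the highest, while the GSK-126 libraries were nearly equal, and the groups did not overlap. The log2 fold change was 0.50 (SE 0.17, adjusted p = 0.953 in edgeR) without the block and 0.52 (SE 0.10, adjusted p = 0.0023 in edgeR) with it, and the call held whichever pair was left out. Rragc was at 86.7, 66.4 and 85.5 CPM under DMSO and at 102, 81.3 and 104 CPM under GSK-126. Here replicate 2 was the lowest library of both groups, so the groups overlapped, although each pair moved by 0.24 to 0.29 on the log2 scale. The block gave Rragc 0.27 (SE 0.082, edgeR adjusted p = 0.0455, and 0.953 without the block), a call lost on leaving out any one pair (adjusted p between 0.0932 and 0.165), and the unblocked value was 0.16 when DMSO replicate 2 was left out. Exons of Rragc overlap 264 bp of 4930535I16Rik on the other strand, and the strand setting of the counting was not given in the sources used here. Rraga had a mean of 90.1 ± 8.19 CPM in the DMSO libraries and 92.6 ± 2.11 CPM in the GSK-126 libraries (SD, n = 3) and a log2 fold change of 0.039 (SE 0.11).

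Ragulator is the pentamer that anchors the Rag GTPases to the lysosome, and Lamtor1 is its lipidated membrane anchor. Lamtor1 was at 99.6, 65.1 and 97.7 CPM under DMSO and at 117, 94.0 and 113 CPM under GSK-126. Replicate 2 was low in both groups, so the groups overlapped, and all 3 pairs were higher with GSK-126. The estimate for Lamtor1, a log2 fold change, was 0.31 (SE 0.18, adjusted p = 0.953 in edgeR) without the block and 0.32 (SE 0.086, adjusted p = 0.0234 in edgeR) with it. The call was lost without pair 2 (edgeR adjusted p = 0.142), and the unblocked value was 0.13 when DMSO replicate 2 was left out. Exons of Lamtor1 share 600 bp with Lrrc51 on the opposite strand. Lamtor5, a scaffold subunit, was at 33.1, 28.6 and 29.3 CPM under DMSO and 34.9, 36.3 and 33.8 CPM under GSK-126. These groups did not overlap, yet the block gave 0.21 (SE 0.12, edgeR adjusted p = 0.328). Lamtor2, Lamtor3 and Lamtor4, the other scaffold subunits, did not pass either, with log2 fold changes without the block of 0.20, -0.015 and 0.27.

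**Figure D2:**
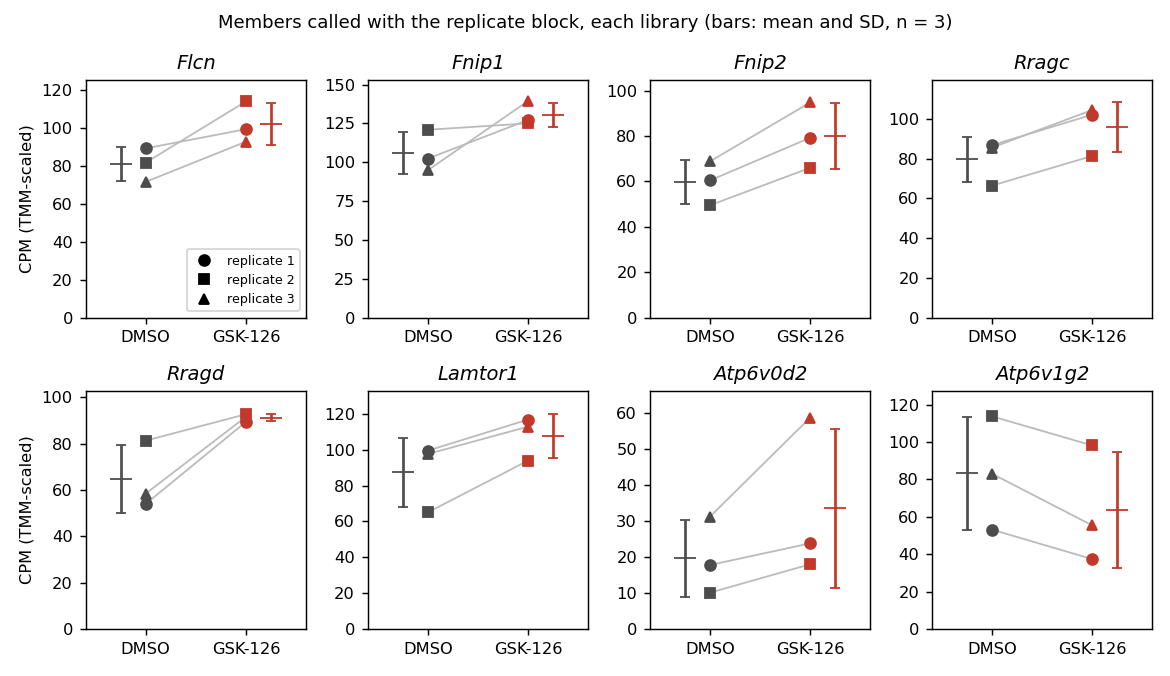
Each panel shows CPM of 1 member called with the replicate block in the 3 DMSO and 3 GSK-126 libraries, with grey lines joining libraries of the same replicate number and bars for the mean and SD (n = 3). The lines run upward in 7 panels and downward for Atp6v1g2. In several panels, most clearly for Atp6v0d2 and Atp6v1g2, replicates of a group lie further apart than the group means.

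The transcription factors on the receiving end of this signalling did not pass. Tfeb, a master regulator of lysosomal genes, was at 11.8, 5.22 and 10.3 CPM under DMSO and at 17.2, 6.14 and 11.0 CPM under GSK-126. The library of GSK-126 replicate 1 stood highest and the groups overlapped. The log2 fold change was 0.34 (SE 0.43) without the block, 0.063 when DMSO replicate 2 was left out and -0.082 when GSK-126 replicate 1 was. Tfe3, its close relative, was the more abundant per length, at 5.78 ± 0.542 CPM per kb of exon against 1.61 ± 0.607 for Tfeb and 1.33 ± 0.368 for Mitf in the DMSO libraries (SD, n = 3). The log2 fold changes of Tfe3 and Mitf were 0.12 (SE 0.13) and 0.22 (SE 0.42). Of mTORC1, the kinase Mtor was at 93.9, 124 and 119 CPM under DMSO and at 93.7, 104 and 105 CPM under GSK-126. The groups overlapped, all 3 pairs were lower by between 0.0033 and 0.25 on the log2 scale, and the log2 fold change of -0.16 (SE 0.14) did not pass. It was -0.081 when DMSO replicate 2 was left out, -0.094 for GSK-126 replicate 1 and -0.26 for DMSO replicate 1. Rptor, the mTORC1 scaffold raptor, had -0.022 (SE 0.11). Slc38a9, the lysosomal arginine sensor that signals to the Rag GTPases, was at 26.4, 30.3 and 30.7 CPM under DMSO and at 27.1, 32.5 and 33.5 CPM under GSK-126. Its groups overlapped and the log2 fold change was 0.089 (SE 0.15).

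TFEB, TFE3 and MITF bind E-boxes with the letters CACGTG, most strongly within the longer TCACGTGA of lysosomal promoters. Windows of 250 bases before to 50 after the start of each gene (RefSeq, GRCm38.p6) were read on both strands, where either motif reads the same because it is palindromic, and every TCACGTGA holds a CACGTG. Of the 35 members with a window, 8 (22.9%) held CACGTG, as did 8.09% of the 27025 genes with a window. TCACGTGA stood in 3 of the 35 (8.57%) and in 1.12% of all genes, and the 10-letter CLEAR consensus in 0 of the 35 and in 0.37% of all genes. Among the 8 members called with the block, 7 had a window, and 3 of these held the shorter motif. Those are shown here with CACGTG in capitals, because they are the called members whose promoter holds it. The windows are chr11:54437929-54438228 (plus strand), chr7:101905587-101905886 (plus strand) and chr4:123917183-123917482 (plus strand), and the motif begins 75, 68 and 112 bases before the gene start.
Fnip1: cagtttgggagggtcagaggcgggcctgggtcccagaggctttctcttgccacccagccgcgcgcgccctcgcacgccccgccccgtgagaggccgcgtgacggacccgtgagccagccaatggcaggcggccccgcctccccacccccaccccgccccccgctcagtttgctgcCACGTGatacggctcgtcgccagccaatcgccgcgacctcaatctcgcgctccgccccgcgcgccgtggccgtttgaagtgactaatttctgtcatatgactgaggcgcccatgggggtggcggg
Lamtor1: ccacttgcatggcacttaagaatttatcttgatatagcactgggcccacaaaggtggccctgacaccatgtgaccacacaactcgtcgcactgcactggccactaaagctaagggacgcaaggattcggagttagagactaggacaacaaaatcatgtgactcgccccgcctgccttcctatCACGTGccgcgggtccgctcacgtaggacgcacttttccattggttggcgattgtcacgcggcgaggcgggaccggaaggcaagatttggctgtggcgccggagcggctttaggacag
Rragc: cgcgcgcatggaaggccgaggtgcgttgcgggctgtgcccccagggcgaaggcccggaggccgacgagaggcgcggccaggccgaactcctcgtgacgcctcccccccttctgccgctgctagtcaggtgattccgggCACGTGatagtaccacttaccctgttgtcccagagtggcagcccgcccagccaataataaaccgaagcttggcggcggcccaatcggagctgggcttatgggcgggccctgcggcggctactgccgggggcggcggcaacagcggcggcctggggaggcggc

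The longer motif stood in the windows of 3 pump subunits, and stretches of 60 bases around it are shown with TCACGTGA in capitals. They lie at chr16:44139358-44139417 (minus strand), chr8:105566035-105566094 (minus strand) and chr17:26676372-26676431 (plus strand).
Atp6v1a: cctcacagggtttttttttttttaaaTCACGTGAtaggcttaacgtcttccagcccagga
Atp6v0d1: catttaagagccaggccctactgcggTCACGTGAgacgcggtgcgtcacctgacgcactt
Atp6v0e: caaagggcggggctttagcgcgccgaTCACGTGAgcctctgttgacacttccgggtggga
None of these 3 subunits passed in either fit, so the longer motif and a call coincided in 0 members. Atp6v0b and Lamtor4 each held the shorter motif at 2 positions. A match describes letters and does not show binding.

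The pump itself was well represented, apart from the C subunit. Atp6v1c1 was listed at 0 in every library with its neighbouring genes, and it enters the sums below as 0. The 22 V1 and V0 subunits summed to 2839.9 ± 204 CPM in the DMSO libraries and 2927 ± 195 CPM in the GSK-126 libraries (SD, n = 3), and the log2 ratios within pairs 1 to 3 were 0.0065, 0.019 and 0.11. The V1 sum was 1493 ± 109.9 CPM and 1504 ± 156 CPM, and the V0 sum was 1347 ± 111 CPM and 1423 ± 79.0 CPM. Both differences were smaller than the spread between replicates of a group. Within pairs 1 to 3 the log2 ratio of the V0 sum was 0.079, 0.041 and 0.12, higher with GSK-126 each time, and that of the V1 sum was -0.067, -0.0022 and 0.094. Per kb of exon, the most abundant V1 subunits in the DMSO libraries were Atp6v1b2, part of the ATP-hydrolysing head, at 79.2 ± 9.95 CPM per kb, Atp6v1g1, of the peripheral stalk, at 77.1 ± 10.03, and Atp6v1a, the catalytic subunit, at 72.7 ± 5.32. These 3 did not differ beyond their spread. In V0, Atp6v0d1, which couples the ring to the central stalk, was at 108 ± 3.24 CPM per kb, followed by Atp6v0b, a ring subunit, at 90.5 ± 15.9. The accessory protein Atp6ap1, which guides pump assembly, was at 114 ± 9.63 CPM per kb and Atp6ap2, the prorenin receptor, at 74.5 ± 11.3.

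**Figure D3:**
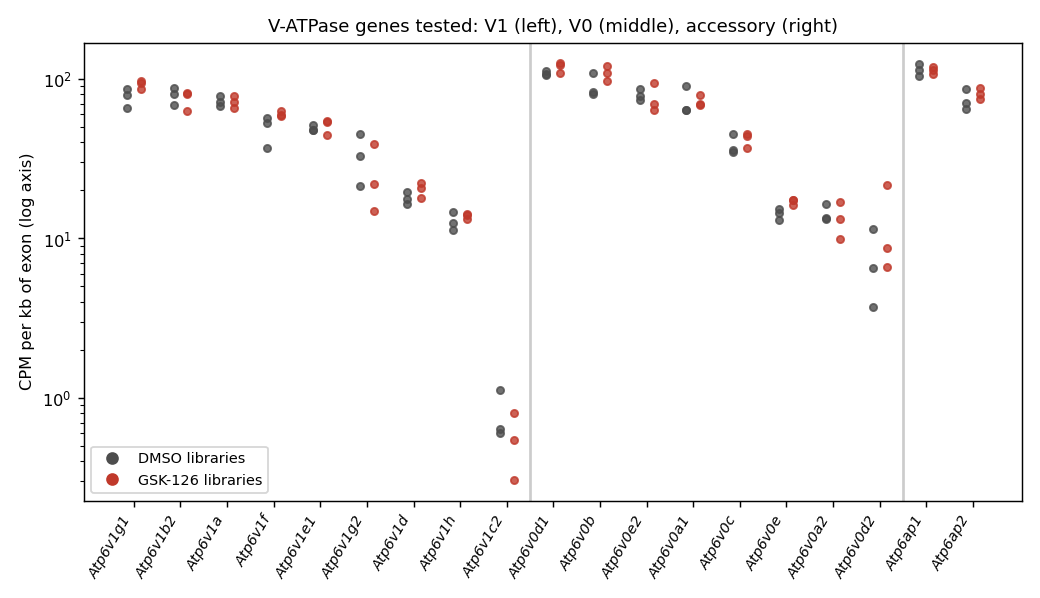
CPM per kb of exon (log axis) of each tested V-ATPase gene in the 3 DMSO and 3 GSK-126 libraries, ordered by mean level within V1, V0 and the accessory proteins. The levels run from about 114 CPM per kb for Atp6ap1 down to under 1 for Atp6v1c2, and the colours overlap for most genes.

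The V1 catalytic subunit Atp6v1a was at 410.4, 474 and 434 CPM under DMSO and at 395, 436 and 474 CPM under GSK-126. Its groups overlapped almost entirely and the log2 fold change was -0.014 (SE 0.14), a sign that turned under 4 other settings of scaling or filter. Atp6v0c, the proton-binding ring subunit, was at 118, 153 and 122 CPM under DMSO and at 125, 152 and 149 CPM under GSK-126, with a log2 fold change of 0.11 (SE 0.15). Its value is uncertain, because the processed pseudogene Atp6v0c-ps2 drew 104 to 128 CPM on 465 bp of exon, and reads of the 2 copies could be split by the counting. The sum of both was 243 ± 23.5 CPM in the DMSO libraries and 257 ± 6.33 CPM in the others. Atp6ap2 was at 186, 228 and 171 CPM under DMSO and at 210.4, 231 and 195 CPM under GSK-126, overlapping, with a log2 fold change of 0.12 (SE 0.15).

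Among the member subunits that did not overlap between the groups, none passed in edgeR with all 3 pairs. Atp6v1f, of the central stalk, was at 60.6, 39.0 and 56.5 CPM under DMSO and at 63.4, 66.9 and 62.2 CPM under GSK-126. DMSO replicate 2 was the lowest library. Pair 2 differed by 0.78 on the log2 scale and pairs 1 and 3 by 0.067 and 0.14. With the block the log2 fold change was 0.32 (SE 0.12, edgeR adjusted p = 0.107), and it passed without pair 1 (0.0185) or pair 3 (0.0251). Without pair 2 the block estimate was 0.11 (edgeR adjusted p = 0.667), and the unblocked value went from 0.30 to 0.14 when DMSO replicate 2 was left out. Atp6v1g1 was at 90.0, 75.1 and 97.5 CPM under DMSO and at 98.5, 108 and 109.7 CPM under GSK-126, and DMSO replicate 2 was again the lowest. Its block estimate was 0.27 (SE 0.089, edgeR adjusted p = 0.0682), and 0.15 without pair 2 (adjusted p = 0.368). The unblocked value, also 0.27, was 0.17 when DMSO replicate 2 was left out. Atp6v0e, a small V0 subunit, was at 57.0, 48.7 and 53.6 CPM under DMSO and at 65.0, 60.3 and 64.9 CPM under GSK-126. Its pairs were close to each other, at 0.19, 0.31 and 0.28, and the block gave 0.26 (SE 0.094, edgeR adjusted p = 0.103).

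Both member subunits that were called belong to paralog families in which one form is restricted to few cell types. Atp6v1g2, the G subunit enriched in neurons, was at 53.2, 114 and 83.1 CPM under DMSO and at 37.4, 98.2 and 55.4 CPM under GSK-126. Replicate 2 was highest in both groups and replicate 1 lowest, so the groups overlapped, and each GSK-126 library lay below its DMSO partner. The log2 fold change was -0.39 (SE 0.38, adjusted p = 0.953 in edgeR) without the block and -0.43 (SE 0.095, adjusted p = 0.00644 in edgeR) with it. Leaving out pair 3 ended the call (adjusted p = 0.0527), and leaving out single libraries without the block moved the value. It was -0.83 when GSK-126 replicate 2 was left out, -0.61 for DMSO replicate 1, -0.099 for DMSO replicate 2 and -0.10 for GSK-126 replicate 1. Its exons share 144 bp with Nfkbil1 on the opposite strand.

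Atp6v0d2, the d subunit known from osteoclasts and macrophages, was at 17.8, 10.1 and 31.2 CPM under DMSO and at 23.8, 18.0 and 58.8 CPM under GSK-126. Replicate 3 was highest in both groups, the groups overlapped, and all pairs rose, by 0.42, 0.84 and 0.91 on the log2 scale. The log2 fold change was 0.76 (SE 0.52, adjusted p = 0.953 in edgeR) without the block and 0.73 (SE 0.14, adjusted p = 0.00184 in edgeR) with it, and the call held whichever pair was left out (adjusted p between 2.53e-05 and 0.0373). Single libraries moved the value in the fit without the block. It was 0.086 when GSK-126 replicate 3 was left out, 0.44 for DMSO replicate 2 and 1.27 for DMSO replicate 3. At 7.25 ± 3.94 CPM per kb with DMSO, it was far below Atp6v0d1.

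The ratio of paralogs within a library does not depend on scaling. Of the 12 pairs of paralogs considered, 7 had at least 10 counts in every library for both genes and were compared by an exact permutation test, two-sided, in which 3 libraries against 3 cannot give a p below 0.1. None passed, and the adjusted p was 0.8 for all 7. The log2 ratio of Atp6v1g2 to Atp6v1g1 was -0.13 ± 0.68 under DMSO and -0.84 ± 0.64 under GSK-126 (SD, n = 3), an exact p of 0.3, and the differences within pairs 1 to 3 were -0.64, -0.73 and -0.75. The difference of -0.71 was -0.34 when DMSO replicate 2 was left out, and -0.43 when GSK-126 replicate 1 was. The ratio of Atp6v0e2 to Atp6v0e, the neuron-enriched form to the widespread one, differed by -0.34 (exact p = 0.3) and by -0.36, -0.17 and -0.48 within pairs, and was -0.20 when GSK-126 replicate 3 was left out, -0.22 for DMSO replicate 2 and -0.54 for GSK-126 replicate 2. The ratio of Atp6v0d2 to Atp6v0d1 differed by 0.59 (exact p = 0.5) and by 0.18, 0.71 and 0.88 within pairs. Without GSK-126 replicate 3 that difference was 0.028, without DMSO replicate 2 it was 0.16, and it was 1.01 and 0.96 without DMSO replicate 3 or GSK-126 replicate 2. In these 3 families and in Atp6v0a2 to Atp6v0a1, at -0.14, all pairs had the same sign. The differences of Fnip2 to Fnip1, Rragd to Rragc and Tfe3 to Tfeb were 0.12, 0.25 and -0.16, and in each 1 pair had the other sign.

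Markers of cell types were read beside Atp6v1g2 and Atp6v0d2. The 8 granule neuron markers summed to between 3831 and 5727 CPM under DMSO and between 3167 and 4680 CPM under GSK-126, and the GSK-126 library held 0.827, 0.817 and 0.796 of its DMSO partner in pairs 1 to 3. With the block 4 of them fell (Neurod1, Zic1, Rbfox3 and Map2) and 1 rose (Tubb3), beside 5.09% and 3.35% of all genes. The markers that fell were 4, 4 and 3 without pair 1, 2 or 3, beside 3.98%, 2.95% and 4.25% of all genes. Across the DMSO libraries, Atp6v1g2 and this sum were both lowest in replicate 1 and highest in replicate 2. The 9 microglial markers summed to between 253 and 562 CPM under DMSO and between 379 and 687 CPM under GSK-126, and the ratios within pairs were 1.22, 1.497 and 1.16. With the block 4 of them rose (C1qa, C1qb, C1qc and Tyrobp) and 0 fell, beside 3.35% and 5.09% of all genes. The markers that rose were 3, 1 and 4 without pair 1, 2 or 3, beside 2.47%, 2.00% and 3.30% of all genes. The microglial sum was highest in replicate 1 of both groups. Single markers differed from it: Tyrobp was at 30.9, 12.6 and 54.0 CPM under DMSO and at 39.0, 28.2 and 62.6 CPM under GSK-126, lowest in replicate 2 and highest in replicate 3 of both groups, the same order as Atp6v0d2. Aif1 was also highest in replicate 3 of both groups, at 9.13 and 10.8 CPM, but fell in pair 1, from 4.50 to 2.35 CPM. Other microglial markers had another order. Cx3cr1, Csf1r, P2ry12, C1qa and C1qc were highest in replicate 1 of both groups, and Tmem119 in replicate 2. C1qb was highest in replicate 3 under DMSO and in replicate 1 under GSK-126. Of the other lists, 1 of 7 astroglial markers rose with the block (S100b) and 1 of 7 of the oligodendrocyte lineage (Mbp). So did 2 of 6 fibroblast and vascular markers tested (Col1a2 and Pdgfrb), while 2 of 5 Purkinje cell and interneuron markers fell (Gad1 and Gad2). These counts stand beside the same 3.35% of all genes rising and 5.09% falling. Without pair 1, 2 or 3 the Purkinje cell and interneuron markers that fell were 0, 1 and 0, and 1 rose without pair 3. The oligodendrocyte markers that rose were then 1, 0 and 1. In the astroglial list and in the fibroblast and vascular list 1 rose each time. The shares of all genes in those fits are given above. The astroglial sum had ratios of 1.05, 0.953 and 0.992 within pairs 1 to 3. The part of any cell type in the changes of Atp6v1g2, Atp6v0d2 or the signalling members was not tested.

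**Figure D4:**
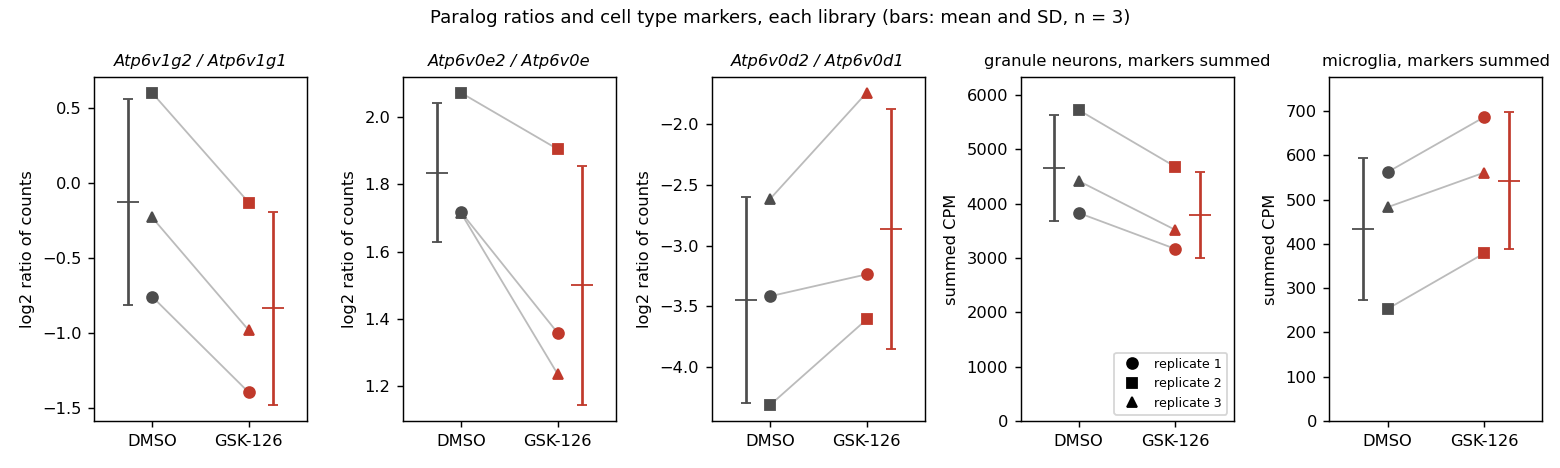
The left 3 panels show the log2 ratio of counts of 2 paralogs in each library and the right 2 panels the summed CPM of the granule neuron and microglial markers, with grey lines joining replicate numbers and bars for the mean and SD (n = 3). Within every pair the Atp6v1g2 and Atp6v0e2 ratios and the granule neuron sum were lower with GSK-126, and the Atp6v0d2 ratio and the microglial sum were higher.

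The surrounding pathway was described through 5 further lists, counted with the block beside 3.35% of all genes rising and 5.09% falling. Of 13 genes listed for assembly and regulation of the pump, the 1 that rose was Tcirg1 (0.32, edgeR adjusted p = 0.0373). It encodes the V0 a3 subunit of osteoclast and immune cells. Its symbol does not match the rule, so it is no member and not in the V0 sums. DESeq2 with the block called 0 of this list higher. A further 2 genes of the list fell. Those were Dmxl2, a rabconnectin subunit that reassembles the pump on synaptic vesicles, at -0.36 (SE 0.075, edgeR adjusted p = 0.00396), and Oxr1, a TLDc protein that acts on V1, at -0.38 (SE 0.091, edgeR adjusted p = 0.0101). Of 14 other parts of mTORC1, mTORC2 and the TSC complex, 0 passed with the block, without it (adjusted or at an unadjusted p under 0.05) or in DESeq2 with the block. Of 21 regulators of the Rag GTPases, 0 rose and 2 fell, the sestrins Sesn1 at -0.30 (SE 0.080, edgeR adjusted p = 0.0215) and Sesn3 at -0.27 (SE 0.078, edgeR adjusted p = 0.0326), stress-induced inhibitors of mTORC1. DESeq2 with the block called neither. Without pair 1, 2 or 3 the pump regulators had 0, 0 and 1 genes called higher and 2, 1 and 2 called lower, and the Rag regulators had 1, 0 and 0 called lower. Of all genes, 2.47%, 2.00% and 3.30% were then called higher and 3.98%, 2.95% and 4.25% lower. The median log2 fold changes of these 3 lists without the block were -0.00033, 0.035 and -0.083.

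Of the further lists, the one that moved most was that of lysosomal and autophagy genes known as TFEB targets. The lists were chosen with earlier results of these data known, so the counts describe this list and do not test it. With the block 13 of 27 rose and 0 fell, beside 3.35% and 5.09% of all genes. Without it 0 passed. An unadjusted p under 0.05 was reached by 3 higher genes and 1 lower gene, beside 1.77% and 2.21% of all genes. The log2 fold change was above 0 in 24 of 27, with a median of 0.27, and in 8161 of all 16729 genes tested. Among those with the smallest p were Gpnmb, a glycoprotein of lysosomes that macrophages also make in quantity, at 0.62 (SE 0.071, edgeR adjusted p = 9.21e-06), and 3 lysosomal hydrolases. These were the protease Ctsd at 0.41 (edgeR adjusted p = 6.11e-04), Hexa at 0.39 (0.00119), which breaks down gangliosides, and the sialidase Neu1 at 0.46 (0.00265). Neu1 was at 59.2 ± 0.689 CPM in DMSO cultures and 81.9 ± 8.68 CPM in GSK-126 cultures (SD, n = 3), and Gpnmb at 566 ± 87.0 and 882 ± 203 CPM, each without overlap of the groups. Over the list the groups did not overlap in 3 genes that were higher and 1 that was lower, beside 4.72% of all genes in each direction. Without pair 1, 2 or 3 the list had 8, 13 and 10 genes called higher, beside 2.47%, 2.00% and 3.30% of all genes. CACGTG stood in the promoter windows of 11 of the 23 listed genes with a window (47.8%), beside 8.09% of all genes. The list was chosen as known TFEB targets and TFEB binds these letters, so this share partly follows from the choice. The activity of TFEB was not tested. The sum of the microglial markers given above was also higher in all 3 pairs, as were 5 of the 9 markers singly. Their part in this list was not tested.

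**Figure D5:**
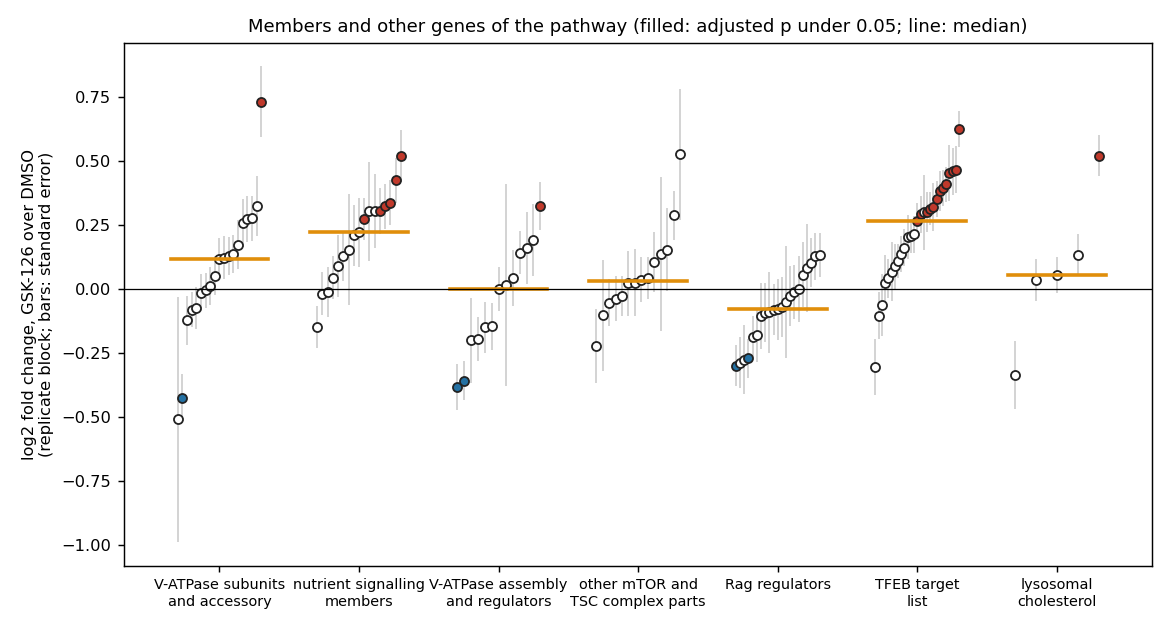
The log2 fold change with the replicate block (bars, SE) of each tested gene of the V-ATPase, the signalling members and the 5 further lists, ordered by value within a list, with the list's median as a line and filled points where the adjusted p was under 0.05. The signalling members and the TFEB target list sit mostly above 0, with medians of 0.22 and 0.26, the V-ATPase genes have a median of 0.12, and the medians of the other 4 lists lie between -0.080 and 0.055.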

How the data were processed

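RNA of 3 DMSO and 3 GSK-126 CGN cultures was polyA-enriched and sequenced. According to the methods and the submitters' processing notes, the authors trimmed reads with Trimmomatic 0.38, aligned them with STAR 2.7.2b to mm10 (GRCm38.p4) and counted reads on exons with HTSeq, and they deposited raw counts per gene of each library, with no normalization. The Gencode release and the strand setting were not given in the sources used here. The 55341 symbols equal those of GENCODE M21, which gave identifiers, exon lengths and overlaps. The lines that name no gene, 58.7% to 60.7% of the reads listed, were left out, and mitochondrial genes took 1.75% to 2.78% of the gene counts.

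Counts were fitted in R 4.3.3 with edgeR 4.0.16 (TMM factors, filterByExpr, quasi-likelihood test, Benjamini-Hochberg adjustment over 16729 genes, threshold 0.05). The main fit had no block, as the study's methods name none, and the replicate number was a block in an alternative. The labels number replicates 1 to 3 in both groups and do not state a pairing. The numbers were taken as pairs because libraries of the same number deviated alike from their group means, by the correlations given in the report. The biological coefficient of variation was 24.0% without and 9.74% with the block. DESeq2 1.42.0 was an alternative, as were upper-quartile and total count scaling, fitting with no filter or with a minimum of 10 counts per library, and each library or pair left out. The fits were tested on simulated counts. No library copied another (chi-square per degree of freedom 8.40 or more).

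CPM was scaled by TMM factors, and CPM per kb used the union of exons. Paralog ratios were tested with scipy 1.17.1. Values in every library were given for members called in either fit, members whose groups did not overlap, and 1 member or more of each role. Genes that are no members were named where called in their list, up to 5 by the smallest p, or as markers; 1 such gene is not reported here. Members and lists were chosen with earlier results of these data known. The TFEB target list and the other lists were written from general knowledge.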

Additional observations from a re-analysis of the deposited data

How the results depend on the processing

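Without the replicate block, 0 members were called under DESeq2, upper-quartile or total count scaling, either filter, or with each library left out in turn. With the replicate block the calls were 7 higher and 1 lower, and 4 and 1 when the block was fitted in DESeq2. The block without pair 1 gave 7 higher and 1 lower, without pair 2 it gave 4 and 1, and without pair 3 it gave 5 and 0. The median log2 fold change of the members was 0.16 under upper-quartile scaling and 0.16 under total counts, and 0.091 to 0.16 with single libraries left out. That of the V1 and V0 subunits was 0.017 with the block without pair 3, and 0.039 to 0.16 with single libraries left out. That of the signalling members was 0.25 under either scaling, 0.29 and 0.14 with the block without pair 1 or pair 2, and 0.12 to 0.29 with single libraries left out. The medians stayed above 0 in all of these settings. The cause of these shifts was not tested.

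The sign of Atp6v1a turned to 0.021 under upper-quartile scaling, 0.022 under total counts, 0.0012 with no filter, 0.0042 with at least 10 counts in every library, and 0.019 and 0.039 with the block without pair 1 or pair 2, and it ran from -0.079 to 0.066 with single libraries left out. Tfeb ran from -0.082 to 0.66. Of the paralog ratios, Atp6v0a2 to Atp6v0a1 ran from -0.35 to 0.13 with single libraries left out, Fnip2 to Fnip1 from -0.11 to 0.30 and Tfe3 to Tfeb from -0.51 to 0.22. Rragd to Rragc ran from 0.065 to 0.55. Among members that did not pass, Slc38a9 ran from 0.031 to 0.19, Atp6ap2 from 0.037 to 0.25 and Atp6v0c from 0.062 to 0.24. Within replicate pairs, the ratio of Fnip2 to Fnip1 was -0.094 in pair 3, that of Rragd to Rragc -0.10 in pair 2 and that of Tfe3 to Tfeb 0.028 in pair 3. Low counts limit Tfeb, Mitf and Atp6v1c2, which had 643, 535 and 90 counts over the 6 libraries and got no adjusted p from DESeq2 with the block.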

Other observations

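Lysosomal cholesterol handling, which feeds the same Rag GTPases through cholesterol sensing, was represented by 5 genes. Npc2, the soluble cholesterol carrier of the lysosomal lumen, averaged 200.2 ± 57.3 CPM in DMSO cultures and 283 ± 61.7 CPM in GSK-126 cultures (SD, n = 3), and rose with the replicate block by a log2 fold change of 0.52 (SE 0.078, edgeR adjusted p = 2.08e-04). Npc1, the membrane transporter that receives cholesterol from it, had 0.035 (SE 0.082) and did not pass, and neither did Lipa, Scarb2 or Gpr155.

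Atp6v1c1, the widespread form of the V1 C subunit, was listed at 0 counts in all 6 libraries. It lies within 16 neighbouring genes of chromosome 15, between 38549343 and 39087121 (mm10 coordinates of GENCODE M21), that were all listed at 0 in every library, 4 of them protein coding (Atp6v1c1, Baalc, Fzd6 and Cthrc1). The gene before the stretch, Gm49077, had 2031 counts over the libraries and the gene after it, Slc25a32, had 2. The alternative form Atp6v1c2 had 90 counts over the libraries. Why the stretch is listed at 0 was not tested. Atp6v1c1 was not tested for a change either, and it enters the V1 sums as 0. The processed pseudogene Atp6v0c-ps2 was at 239.7 ± 14.4 CPM per kb of exon with DMSO, above any tested V-ATPase subunit. That value rests on 465 bp of exon, against 3384 bp for Atp6v0c. In CPM the pseudogene was at 111 ± 6.71 and Atp6v0c at 131 ± 19.2 in the DMSO libraries (SD, n = 3). How the counting divided reads between the gene and its pseudogene was not tested. The value per kb therefore does not rank the pseudogene among the subunits.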
